A study of Mus musculus with 3 samples.

Results

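The histone cluster genes are the genes, packed into a few chromosomal clusters, that encode the bulk of the histones on which DNA is wound. All gene symbols that begin with Hist1h, Hist2h, Hist3h or Hist4h were taken as members, 63 of the 22100 symbols in the files. In GENCODE vM21 (GRCm38), 51 of them lie in the Hist1 cluster on chromosome 13, 9 in the Hist2 cluster on chromosome 3, 2 in the Hist3 pair on chromosome 11, and Hist4h4 stands by itself on chromosome 6. They encode linker histone H1 (6 members) and the core histones H2A (16), H2B (16), H3 (12) and H4 (13). The series asks how the gut lengthens during development. Whole small intestines of wild-type, untreated mice were taken at the embryonic stages E15.5 and E17.5 (E for days of embryonic age) and on postnatal day 7 (P7), and each stage is 1 library of the Chromium 3′ v2 kind, in which every captured transcript carries a unique molecular identifier (UMI). Viable cells were sorted either for the epithelial protein Epcam or for the absence of Epcam, CD31 and CD45, so the sort set the share of epithelial cells, and the number of animals pooled was not given in the sources used here.

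Most histone cluster genes are known as replication-dependent: their mRNAs are made when DNA is copied, end at a conserved stem-loop in place of a poly(A) tail, and are degraded when S phase ends. A few members are known to give polyadenylated mRNAs as well, in cells that no longer divide. The libraries were primed from poly(A), so how completely stem-loop mRNAs were captured is not known, and whether the captured molecules were polyadenylated was not tested. Levels are in CPM: the UMIs of a member per 1000000 UMIs of the cells in question. Levels of different members are not ranked against each other, since capture differs between them.

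The libraries held 8391 to 11598 cells, with, for E15.5, E17.5 and P7, median depths of 8503, 6262.5 and 14014 UMIs per cell, and histone cluster genes made up 2603, 1947 and 594 CPM. Cells were put into classes by counting detected markers of each class. This gave, for E15.5, E17.5 and P7, 3644, 5202 and 919 fibroblasts, 1317, 1315 and 533 muscle cells, 939, 1412 and 203 neural cells, 169, 185 and 1628 crypt cells, and 1148, 1307 and 4417 other epithelial cells. Epcam was detected in 98.8% or more of both epithelial classes at every stage, Col1a1 in 96.5% to 99.1% of fibroblasts, Actg2 in 89.3% to 98.9% of muscle cells and Elavl4 in 66.0% to 82.3% of neural cells. Some markers also appeared outside their class: Col1a1 was detected in 64.0% to 96.0% of muscle cells, and at P7 Epcam in 18.6% of fibroblasts and the enterocyte gene Fabp2 in 63.1% of fibroblasts, 61.0% of muscle cells and 72.9% of neural cells. Free epithelial RNA of this kind can also hold Hist1h2bc; its part in the levels outside the epithelium was not tested. Of crypt cells, 26.04% had a UMI of Olfm4 at E15.5, 79.5% at E17.5 and 96.7% at P7, so the crypt class of the embryo is a set of epithelial cells with many crypt markers, before crypts have formed. Cells were then divided by whether they held at least 1 UMI of Mki67 or Top2a, which encode proteins of cycling cells and are called the marks below. The marked share was 48.0%, 25.0% and 19.6% of fibroblasts, 35.3%, 22.4% and 13.9% of muscle cells, 24.3%, 19.9% and 8.87% of neural cells, 96.4%, 90.3% and 75.2% of crypt cells and 60.3%, 43.9% and 20.4% of other epithelial cells. Shares depend on depth, and the P7 medians were 4566 UMIs in fibroblasts and 15686 in other epithelial cells. With each cell thinned to 3000 UMIs, P7 shares were 18.7% of fibroblasts, 13.7% of muscle cells and 4.49% of neural cells. For crypt cells the thinned P7 share was 52.8%, and for other epithelial cells 9.45%. Marked cells were deeper, with medians of 9269 against 6273 UMIs in E15.5 fibroblasts. An unmarked cell can be a cycling cell in which no UMI of the marks was captured. Each stage is 1 library with no replicate, so no test was made. The ranges in parentheses after a ratio are 95% intervals for the counting of UMIs, with no spread between animals in them. A gene is called different when the CPM of 1 group is at least 2-fold that of the other, among genes with 50 or more UMIs over the 2 groups.

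The members were divided by their ratio of marked to unmarked cells in E15.5 fibroblasts alone, and all other classes and stages were read with that division. Of the 63 members, 32 had a ratio of 10 or more and are called linked, 17 had a ratio from 2 to 10 and are called intermediate, 3 were below 2 and are called unlinked, and 11 had under 50 UMIs there. The unlinked members are Hist3h2ba, Hist3h2a and Hist1h2bc. The linked members just inside and the intermediate member just outside the limit were Hist1h3i with a ratio of 10.002 and Hist1h2bg with 9.69, while the lower limit fell in a wide gap between Hist3h2a at 0.87 and Hist4h4 at 2.93. The intermediate members are Hist1h1c, Hist1h1e, Hist1h2ac, Hist1h2ag, Hist1h2ai, Hist1h2be, Hist1h2bf, Hist1h2bg, Hist1h2bk, Hist1h3a, Hist1h3d, Hist1h4a, Hist1h4b, Hist1h4c, Hist1h4i, Hist1h4j and Hist4h4. Those with too few UMIs are Hist1h1t, Hist1h2ah, Hist1h2ao, Hist1h3h, Hist1h4f, Hist1h4m, Hist1h4n, Hist2h2be, Hist2h3c1, Hist2h3c2 and Hist2h4, and all others are linked. These ratios are what made the division and are given as a description only; 4.63% of all genes tested were at least 2-fold higher in marked E15.5 fibroblasts.

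The stem-loops of members from each group are printed here because the stem-loop is the feature by which replication-dependent histone mRNAs are known, and members of all 3 groups carry it. Each is given 5′ to 3′ from the GENCODE vM21 transcript, with the stem-loop in capitals and its position on GRCm38; all lie after the coding sequence of a transcript with a single exon.
Hist1h2ap (linked, chr13:21833029-21833044, minus strand): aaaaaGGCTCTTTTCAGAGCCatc
Hist1h2ae (linked, chr13:23570668-23570683, minus strand): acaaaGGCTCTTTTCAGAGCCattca
Hist1h3b (linked, chr13:23752820-23752835, plus strand): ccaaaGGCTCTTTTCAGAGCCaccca
Hist1h1e (intermediate, chr13:23621782-23621797, minus strand): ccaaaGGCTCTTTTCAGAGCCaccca
Hist1h1c (intermediate, chr13:23739512-23739527, plus strand): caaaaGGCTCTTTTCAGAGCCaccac
Hist3h2ba (unlinked, chr11:58949349-58949364, plus strand): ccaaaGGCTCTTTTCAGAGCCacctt
Hist3h2a (unlinked, chr11:58955172-58955187, plus strand): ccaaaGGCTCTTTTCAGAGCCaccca

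The capital letters are identical in all 7, unlinked members included. Over all members, 45 had a stem-loop of this kind in an annotated transcript, 25 of them with these same letters and 7 with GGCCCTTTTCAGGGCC. The third unlinked member, Hist1h2bc, is annotated with 2 exons and had no stem-loop in its transcript of 1156 bases. An annotated stem-loop was present in 19 of 32 linked, 16 of 17 intermediate and 2 of 3 unlinked members. The groups also differed in how far the annotated transcript ran past the stem-loop. The median was 47 bases in the 19 linked members with a stem-loop, 357.5 bases in the 16 intermediate ones, and 169 and 1643 bases in Hist3h2ba and Hist3h2a. A transcript ran more than 100 bases past it in 6 of 19 linked and 11 of 16 intermediate members. As a description over the 37 members with a stem-loop and enough UMIs, Spearman's rho between the E15.5 fibroblast ratio and these bases was -0.44; the points share 1 library and 1 annotation, and many annotated transcripts (Hist1h1b and Hist1h2af among them) end before any stem-loop.

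Promoters are shown for a linked member and for the neighbouring Hist3h2ba and Hist3h2a, to compare members that moved with the marks and members that did not. Each is the stretch of 150 bases before the RefSeq start (GRCm38.p6), 5′ to 3′ on the gene's strand, with 3 motifs in capitals where they occur on either strand: the CCAAT box, the TATA box (searched as TATAAA) and the octamer (searched as ATTTGCAT).
Hist1h1b (linked, chr13:21780626-21780775, minus strand): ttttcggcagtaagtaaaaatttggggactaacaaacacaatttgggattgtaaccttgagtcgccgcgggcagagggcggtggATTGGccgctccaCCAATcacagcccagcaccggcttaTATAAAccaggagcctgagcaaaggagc
Hist3h2ba (unlinked, chr11:58948761-58948910, plus strand): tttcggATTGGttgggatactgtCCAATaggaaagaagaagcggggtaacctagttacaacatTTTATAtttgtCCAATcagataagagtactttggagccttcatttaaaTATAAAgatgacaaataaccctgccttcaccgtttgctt
Hist3h2a (unlinked, chr11:58954535-58954684, plus strand): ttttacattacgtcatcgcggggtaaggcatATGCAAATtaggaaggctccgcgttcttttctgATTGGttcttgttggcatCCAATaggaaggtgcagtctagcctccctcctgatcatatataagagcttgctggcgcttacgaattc

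All 3 hold CCAAT more than once. Promoters of 250 bases before and 50 after the start were found in RefSeq for 58 members. CCAAT occurred in 49 of them, against 37.4% of all 32851 promoters of that length, TATAAA in 33 against 13.6%, and the octamer ATTTGCAT in 11 against 1.74%. By group, CCAAT was present in 29 of 31 linked, 12 of 16 intermediate and 2 of 2 unlinked promoters, so its presence did not separate the groups. Some promoters of neighbouring members overlap, as those of Hist1h2bl and Hist1h2ai and of Hist1h2ae and Hist1h2bg do. A motif in a shared stretch is counted for each member, so the 58 promoters are not independent. None of the 3 motifs contains another, and a match is a description of sequence only.

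Linked members, summed, were many-fold higher in marked cells of all 5 classes. In fibroblasts outside the division, their summed level was 4370 CPM in marked against 87.1 in unmarked cells at E17.5, a ratio of 50.2 (47.8 to 52.7), and 2133 against 34.8 CPM at P7, a ratio of 61.3 (50.9 to 74.4). In other epithelial cells the ratio was 21.8 (20.3 to 23.5), 27.9 (25.7 to 30.3) and 20.2 (18.8 to 21.6) at E15.5, E17.5 and P7. In muscle it was 14.4, 20.9 and 27.9, and in neural cells 12.8, 23.2 and 10.2, the last from 18 marked cells and with no member that had enough UMIs (2.79% of all genes were higher there). Neural cells were also divided into cells with neuronal markers, with at least 2 more detected of Tubb3, Elavl3, Elavl4 and Stmn2 than of the glial genes Sox10, Fabp7 and S100b, and cells with glial markers, the reverse. Of the 75 linked UMIs in those 18 cells, 72 came from 7 cells with glial markers, and the 11 with neuronal markers held 3, or 20.05 CPM (4.13 to 58.6), against 41.3 CPM (32.9 to 51.2) in unmarked cells with neuronal markers. P7 crypt cells had 734 against 46.9 CPM, a ratio of 15.7 (13.8 to 17.9). The crypt ratios of the embryo, 30.2 (17.3 to 58.4) and 24.7 (17.7 to 35.7), rest on 6 and 18 unmarked cells, which held too few UMIs for counts by member.

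The counts by member are a description, since most linked members reached 50 UMIs only through the marked cells, where they are high: of those with enough UMIs, 9 of 26 in E17.5 fibroblasts, 7 of 19 in P7 other epithelial cells and 0 of 25 in P7 crypt cells did so in the unmarked cells alone. At E17.5, 26 of 26 linked members with enough UMIs were at least 2-fold higher in marked fibroblasts, where 5.08% of all genes tested were, 16 of 16 in muscle (4.66% of all genes), 23 of 23 in neural cells (7.98%) and 25 of 25 in other epithelial cells (6.21%). At P7 the counts were 9 of 9 in fibroblasts (5.45% of all genes), 25 of 25 in crypt cells (3.64%) and 19 of 19 in other epithelial cells (7.15%). In the E15.5 classes that the division did not use they were 23 of 23 in muscle (4.72%), 22 of 22 in neural cells (7.36%) and 27 of 27 in other epithelial cells (5.34%). The exception was P7 muscle, with 3 of 4 (5.07% of all genes), where Hist1h4h, a core histone H4 gene, had 28.4 against 19.6 CPM. Members without enough UMIs are not in these counts, so they do not speak for all 32.

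**Figure D1:**
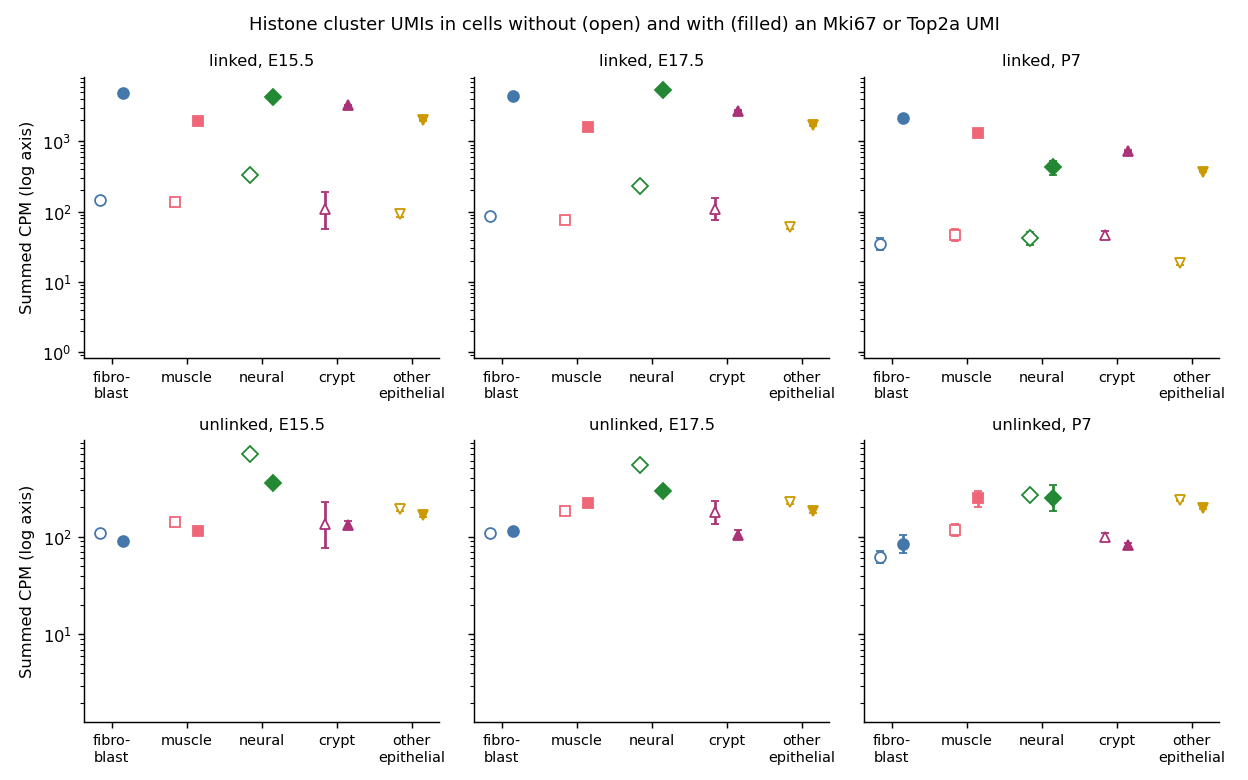
Summed CPM (log axis) of the 32 linked members (top) and the 3 unlinked members (bottom) by cell class, for E15.5, E17.5 and P7; open symbols are cells without and filled symbols cells with a UMI of Mki67 or Top2a, and bars are 95% Poisson intervals. Filled symbols of the linked members stand far above the open ones in every class. Symbols of the unlinked members lie closer together, the filled ones below in neural cells of the embryo and above in P7 muscle. E15.5 fibroblasts made the division, so their symbols are a description only.

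Intermediate members kept a place between both groups. Their summed ratio was 6.89 (6.60 to 7.19) in E17.5 fibroblasts, 4.31 (3.99 to 4.65) in E17.5 muscle, 3.42 (3.26 to 3.58) in E17.5 neural cells, 2.94 (2.69 to 3.22) in P7 crypt cells and 2.61 (2.49 to 2.74) in P7 other epithelial cells. Unlinked members had ratios of 1.06 (0.98 to 1.14) in E17.5 fibroblasts, 0.82 (0.77 to 0.87) in E17.5 other epithelial cells and 0.84 (0.81 to 0.88) in P7 other epithelial cells. In P7 muscle they were higher with the marks, at 2.10 (1.66 to 2.64), and in P7 fibroblasts at 1.38 (1.07 to 1.77). In neural cells of E15.5 and E17.5 their sum was lower with the marks, at 0.51 (0.48 to 0.55) and 0.54 (0.50 to 0.58). The members did not move together, since Hist1h2bc alone had a ratio of 2.2 in E17.5 neural cells. The mix of neurons and glia also moved with the marks. Cells with neuronal markers were high in unlinked members and carried the marks in 11.4% and 7.04% of cases, while cells with glial markers were low and carried them in 56.4% and 38.5%. Within cells with neuronal markers, unlinked members stood at 693 CPM with and 771 without the marks at E15.5, and at 558 and 688 CPM at E17.5. Within cells with glial markers they stood at 114 and 145 CPM at E15.5, with overlapping intervals, and at 215 and 86.5 CPM at E17.5, the opposite direction. At E17.5 Hist1h2bc by itself was higher with the marks in cells with neuronal markers and in cells with glial markers. Neural cells in neither group stood at 182 CPM with and 125 without the marks at E15.5, and at 182 and 178 CPM at E17.5. What part the mix had in the ratios of the neural class was not tested. In P7 crypt cells the unlinked ratio was 0.83 (0.75 to 0.92), and this direction turned when cells were divided by the G2/M list in place of Mki67 and Top2a, to a log2 ratio of 0.55 against -0.27.

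**Figure D2:**
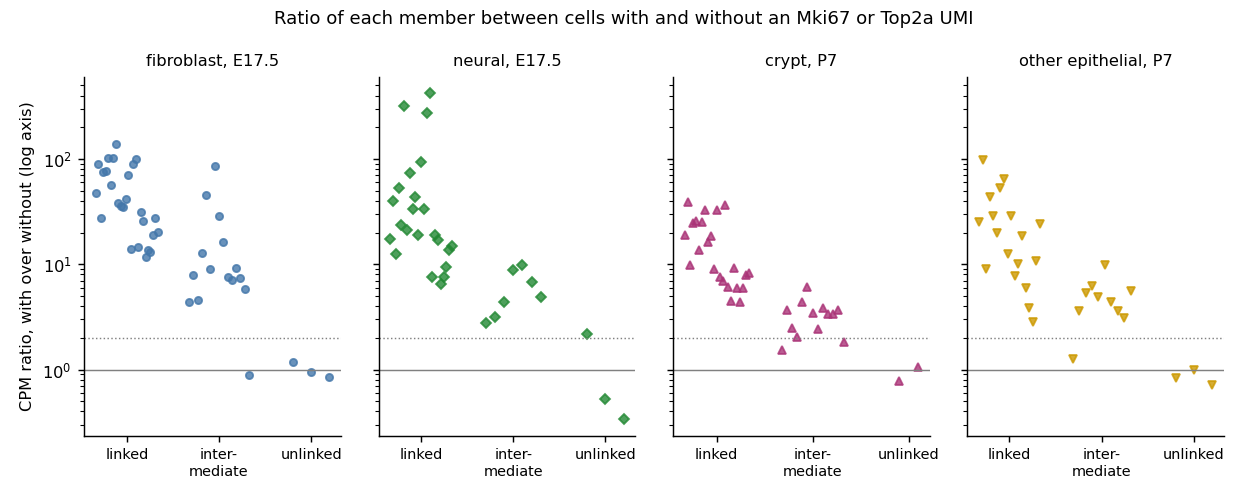
Each point is 1 member with 50 or more UMIs, placed by its CPM ratio of cells with to cells without an Mki67 or Top2a UMI (log axis), in 4 class and stage combinations that the division did not use; the solid line is a ratio of 1 and the dotted line a ratio of 2. Linked members lie above 2 in all 4 panels and unlinked members below 2, apart from Hist1h2bc at 2.20 in E17.5 neural cells.

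The share of cells with any linked UMI showed the same contrast, less sharply than the levels. At E17.5, 70.5% of marked and 30.1% of unmarked fibroblasts held such a UMI, or 68.1% and 20.7% once each cell was thinned to 3000 UMIs. At P7 the shares were 79.8% and 41.4% in crypt cells, or 63.7% and 16.7% thinned, and 50% and 23.0% in other epithelial cells, or 44.0% and 6.78% thinned. A UMI of any unlinked member was about as frequent in marked as in unmarked P7 other epithelial cells, at 77.4% and 78.4%, or 37.0% and 43.3% thinned. In E15.5 neural cells it was rarer with the marks, at 70.2% against 86.9%, or 36.9% against 72.2% thinned, where the mix of neurons and glia also differs with the marks.

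Among linked members, the linker histone gene Hist1h1b had the most UMIs, 93107 over the 3 libraries. In marked fibroblasts Hist1h1b stood at 1233 CPM at E15.5, 1625 at E17.5 and 843 at P7, and in unmarked ones at 29.6, 18.2 and 5.65 CPM. At P7, Hist1h1b was at 207 against 5.29 CPM in crypt cells and 105 against 1.08 CPM in other epithelial cells. A UMI of Hist1h1b was found in 51.3% of marked and 5.96% of unmarked P7 crypt cells, and in 38.5% of all E15.5 fibroblasts, or 30.2% once each cell was thinned to 3000 UMIs. Marked and unmarked levels were far apart in every class at every stage, except P7 neural cells, where Hist1h1b had too few UMIs.

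Hist1h2ap and Hist1h2ae, which encode core histone H2A, came next, with 81606 and 58684 UMIs. In marked fibroblasts Hist1h2ap fell by stage, from 1398 to 683 to 230 CPM, and in unmarked ones from 21.7 to 4.90 to 0.60 CPM. Hist1h2ae took a similar course, 889, 666 and 340 CPM in marked fibroblasts. In marked crypt cells Hist1h2ap was at 1051, 570 and 110 CPM, and in marked other epithelial cells at 675, 364 and 56.9 CPM. Between E15.5 and E17.5 the change in marked fibroblasts thus went opposite ways for Hist1h2ap (down) and for Hist1h1b (up). The coding sequence of Hist1h2ap is identical to that of Hist1h2ao, which had few UMIs, and Hist1h2ae is 99.2% identical to Hist1h2ad, so the assignment between such copies is uncertain.

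The remaining linked members among the 12 with the most UMIs were Hist1h4d, Hist1h3c, Hist1h2ab and Hist1h1a. Hist1h3c, a core histone H3 gene, was close to absent from unmarked cells: in fibroblasts it had 149, 131 and 97.95 CPM with the marks and 5.79, 1.33 and 0.30 CPM without, and in neural cells 141 and 190 CPM with and 1.24 and 0.45 CPM without at E15.5 and E17.5. Hist1h2ab stood at 127, 169 and 62.5 CPM in marked fibroblasts and Hist1h1a at 113, 136 and 57.8 CPM. Hist1h4d, a core histone H4 gene, was less sharply divided, with ratios of 11.8 (10.498 to 13.3) in E17.5 fibroblasts, 6.42 (5.56 to 7.43) in E17.5 neural cells and 5.96 (4.44 to 8.18) in P7 crypt cells. Together the 12 members with the most UMIs held 82.5% of all histone cluster UMIs.

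The highest and lowest ratios over all 5 classes pooled came from nearly the same members in each library. At E15.5 the highest were Hist1h3b at 66.4, Hist1h2af at 49.7, Hist1h1b at 42.1, Hist1h2bp at 29.5 and Hist1h2an at 28.7. At E17.5 they were Hist1h3b at 122, Hist1h2an at 96.9, Hist1h2af at 90.3, Hist1h3c at 75.6 and Hist1h2ap at 58.8. At P7 they were Hist1h2af at 566, Hist1h3b at 280, Hist1h1b at 110, Hist1h2ap at 75.7 and Hist1h2an at 72.6. All of these were linked. The pooled E15.5 cells include the fibroblasts that made the division, so at E15.5 the high and low places were partly given in advance. At P7 the unmarked cells held 1 UMI each of Hist1h2af and Hist1h3b, so these ratios have wide intervals (101 to 22418 for Hist1h2af and 49.7 to 11142 for Hist1h3b). The lowest ratio in each library was that of Hist3h2ba, at 0.27, 0.29 and 0.29. Hist3h2a was at 0.42, 0.60 and 0.79 and Hist1h2bc at 0.96, 1.16 and 0.59. The other low places were taken by members with low levels, Hist2h3c1 (0.82 at E15.5 and 0.46 at P7), Hist2h4 (1.24 at E15.5), Hist4h4 (1.41 at E17.5) and Hist2h2be (1.88 at E17.5), and by Hist1h1c (1.20 at P7). Pooling mixes classes that differ in their marked share, so these ratios also carry differences between classes; 4.88%, 5.83% and 9.1% of all genes were at least 2-fold higher, and 10.3%, 11.3% and 20.4% at least 2-fold lower, in the pooled marked cells.

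Histone UMIs peaked in cells that held UMIs of both S and G2/M genes. Cells were thinned to 3000 UMIs and grouped by UMIs of an S list (22 genes such as Pcna, the Mcm genes and Ccne2) and a G2/M list (18 genes such as Ccnb1, Cdk1 and Plk1), where 3 or more UMIs count as a mark of that list; neither list holds a histone gene, Mki67 or Top2a. In E17.5 fibroblasts, linked members stood at 78.8 CPM in the 976 cells with no UMI of either list, 81.5 in the 1915 cells with 1 or 2 of a list, 226 in the 748 cells marked by the S list only, 7830 in the 523 cells marked by both and 2377 in the 387 cells marked by the G2/M list only. P7 crypt cells gave 38.0, 77.0, 166, 1255 and 732 CPM in the same order, and P7 other epithelial cells 16.5, 23.4, 70.0, 1555 and 606 CPM. Neural cells of E17.5 gave 208, 241, 524, 9161 and 3274 CPM. The order with both lists highest, the G2/M list next and the S list below them held in all 5 classes at E15.5 and E17.5. At P7 it held in the 4 classes other than neural, where groups held 2 to 6 cells. E15.5 fibroblasts made the division, so their order was partly given in advance and is a description only.

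**Figure D3:**
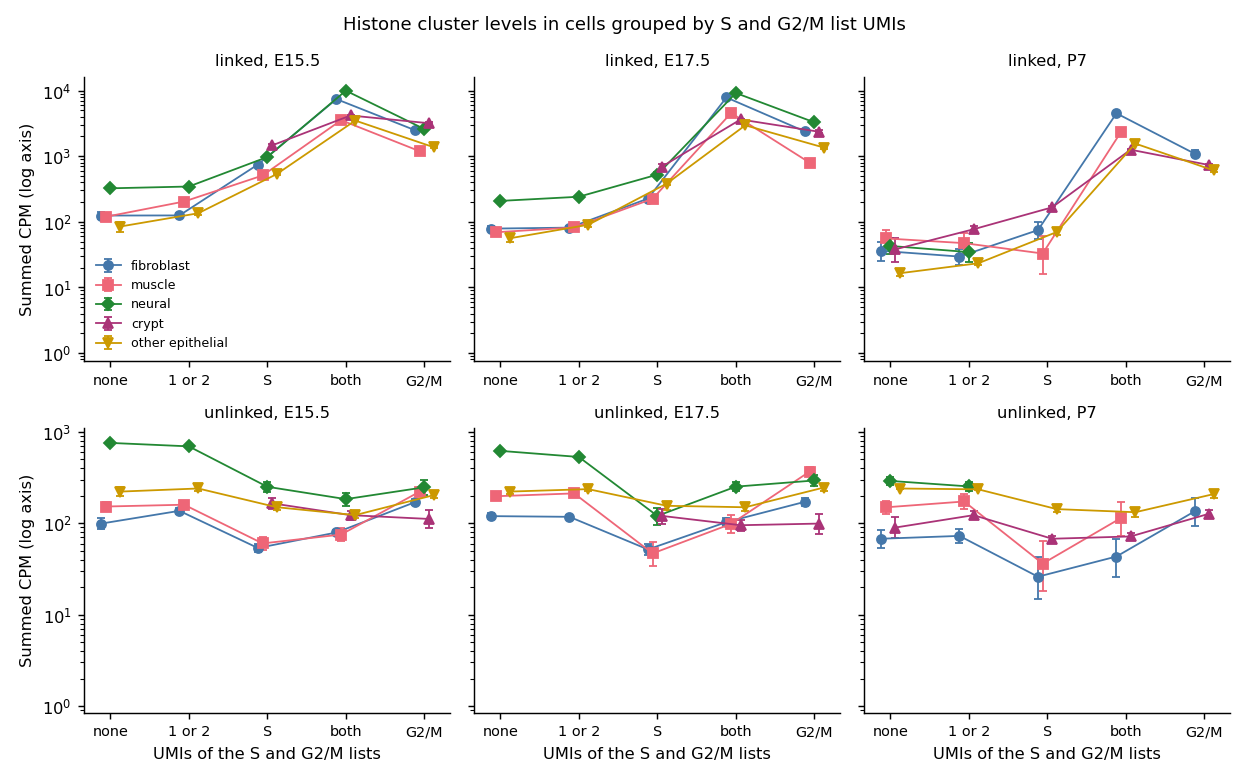
Summed CPM (log axis) of linked (top) and unlinked (bottom) members in cells grouped by UMIs of the S and G2/M lists after thinning to 3000 UMIs (none; 1 or 2 of a list; 3 or more of S only, of both, or of G2/M only), for each class with 20 or more cells in a group; bars are 95% Poisson intervals. Linked members peak in cells marked by both lists, at 7830 CPM in E17.5 fibroblasts, and unlinked members show no such peak. E15.5 fibroblasts made the division, so their points are a description only.

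Hist1h1b, Hist1h2ap and Hist1h2ae all followed this order in E17.5 fibroblasts: Hist1h1b stood at 77.5, 2947 and 835 CPM in cells marked by S only, both and G2/M only, Hist1h2ap at 24.7, 1253 and 332 CPM and Hist1h2ae at 34.2, 1204 and 345 CPM. Hist1h2bc had another order. In fibroblasts of E15.5, E17.5 and P7, Hist1h2bc was lowest in cells marked by the S list only, at 35.5, 25.8 and 17.9 CPM, and highest in those marked by the G2/M list only, at 133, 128 and 104 CPM, with 63.001, 60.7 and 31.5 CPM in cells with no UMI of either list. The groups are ranges and not phases: 1245 of 4549 E17.5 fibroblasts had 2 or 3 UMIs of a list, next to the limit. Cells marked by both lists were also the deepest, with a median of 7602 UMIs against 4957 in cells with none. Marking cells at their own depth in place of thinned depth raised the log2 ratio of linked members between both lists and S only from 5.12 to 6.08 in E17.5 fibroblasts and from 2.92 to 3.81 in P7 crypt cells.

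Histone levels fell from the embryo to P7, and did so within marked cells too. In fibroblasts all 63 members summed to 3505 CPM at E15.5, 1971 at E17.5 and 819 at P7. Of the members with enough UMIs, 16 of 54 were at least 2-fold lower over the first interval, E15.5 to E17.5 (2.34% of all genes), and 36 of 45 over the second, up to P7 (5.04%). In muscle these counts were 9 of 40 (6.94% of all genes) and 12 of 30 (5.71%), in neural cells 0 of 41 (0.974%) and 31 of 33 (9.43%), in crypt cells 1 of 37 (4.25%) and 34 of 42 (2.68%), and in other epithelial cells 4 of 47 (4.87%) and 38 of 44 (11.2%). The marked share of fibroblasts became smaller over both intervals. Within marked fibroblasts over the first, the linked members held 4827 and 4370 CPM, and 2 of 32 were at least 2-fold lower at E17.5, where 1.84% of all genes tested were. The E15.5 value comes from cells whose levels made the division, so this first interval is a description only. Over the second, the linked members were lower within marked fibroblasts as well, at 2133 CPM at P7, with 13 of 25 at least 2-fold lower (4.27% of all genes). In marked crypt cells they went from 2733 to 734 CPM with 24 of 25 lower (2.66% of all genes), and in marked other epithelial cells from 1690 to 372 CPM with 25 of 25 lower (4.58%). Marked muscle cells changed less, from 1591 to 1306 CPM with 3 of 15 lower (7.03%). Members enter the counts between stages by their UMIs over both stages together, so they can enter through the stage where they are high. Linked UMIs in marked fibroblasts were 39601 at E17.5 and 2286 at P7, and in marked other epithelial cells 16235 and 5393. Marked crypt cells went the other way, with 9927 and 17190. How many members had enough UMIs at P7 alone is not given, so all counts between stages are a description only. In marked neural cells the linked members rose from 4279 to 5311 CPM between E15.5 and E17.5. They stood at 426 CPM in the 18 marked neural cells of P7. The mix of these cells differed between stages. From E15.5 to E17.5, marked cells with neuronal markers went from 2174 to 2406 CPM and those with glial markers from 4962 to 6550. Those in neither group fell from 6860 to 5822 CPM. At P7, 11 marked cells with neuronal markers had 20.05 CPM and 7 with glial markers had 2728. What part the mix had was not tested. Cells marked by both the S and G2/M lists also had less at P7 than at E17.5, with 7830 and 4493 CPM in fibroblasts, 4544 and 2359 in muscle, 3620 and 1255 in crypt and 2951 and 1555 in other epithelial cells. Over all genes tested the median log2 change from E17.5 to P7 was 0.16 in fibroblasts, 0.30 in muscle, 0.20 in neural, 0.11 in crypt and 0.03 in other epithelial cells, opposite to the histone change. Stage and library cannot be told apart here, nor can fewer transcripts per cell and a larger total of other RNA.

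Which histone types the UMIs came from shifted as well. In marked fibroblasts, H1 members made up 35.2% of histone cluster UMIs at E15.5, 48.1% at E17.5 and 51.4% at P7, while H2A members went from 45.9% to 31.7% to 27.2%. Marked crypt cells showed the same direction, with H1 at 34.1%, 38.4% and 40.7% and H2A at 47.6%, 38.2% and 28.6%. H3 members stayed at 6.6% in marked fibroblasts of all 3 stages. In unmarked other epithelial cells H2B members held 45.5%, 49.5% and 66.0% of histone cluster UMIs, most of it Hist1h2bc. Capture differs between members, so these shares do not rank the types.

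Hist3h2ba and Hist3h2a, which encode an H2B and an H2A and lie side by side on chromosome 11, were highest in neural cells. Hist3h2ba had 388, 311 and 187 CPM in neural cells at E15.5, E17.5 and P7, against 11.8, 14.6 and 3.16 CPM in fibroblasts, 26.8, 29.5 and 6.25 in muscle, 28.4, 11.9 and 1.12 in crypt cells and 35.4, 16.9 and 1.26 in other epithelial cells. The neural class was highest at every stage, and its interval overlapped no other. A UMI of Hist3h2ba was found in 75.0%, 61.4% and 74.9% of neural cells but in 7.55%, 6.38% and 1.41% of fibroblasts. Hist3h2a had 161, 122 and 66.9 CPM in neural cells and 13.2 to 34.6 CPM in the other classes. The annotated gene Hist3h2a lies within Trim17 on the same strand, and reads of both could be assigned to either. Among unmarked neural cells, Hist3h2ba stood at 502 and 462 CPM in those with neuronal markers and at 57.4 and 43.6 CPM in those with glial markers at E15.5 and E17.5, and Hist3h2a at 207 and 175 against 29.7 and 13.8 CPM.

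In the embryo, neural cells without the marks also held more of the linked members than unmarked fibroblast, muscle and other epithelial cells. Linked members were chosen for a high marked to unmarked ratio in E15.5 fibroblasts, so the unmarked E15.5 fibroblast value is a description only. Linked members stood at 334 and 229 CPM in unmarked neural cells of E15.5 and E17.5, against 147 and 87.1 CPM in unmarked fibroblasts, 137 and 76.2 CPM in muscle and 91.1 and 60.6 CPM in other epithelial cells. At P7 this order was gone, with 41.9 CPM in unmarked neural cells, 34.8 in fibroblasts, 46.9 in muscle and 18.5 in other epithelial cells. Hist1h2ap was at 99.2, 26.6 and 1.41 CPM in unmarked neural cells of the 3 stages. The intermediate H1 gene Hist1h1e had 182 and 294 CPM in unmarked neural cells of E15.5 and E17.5, against 76.6 and 82.8 CPM in unmarked fibroblasts of those stages. The makeup of the neural class differed between stages: Elavl4, a neuronal gene, was detected in 76.0%, 66.0% and 82.3% of its cells, and Sox10, a glial and progenitor gene, in 21.9%, 31.7% and 17.7%. A low level of the linked members in all unmarked cells can hold free RNA and cells whose marks were missed. Their part, in the levels and in the differences between classes, was not tested.

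**Figure D4:**
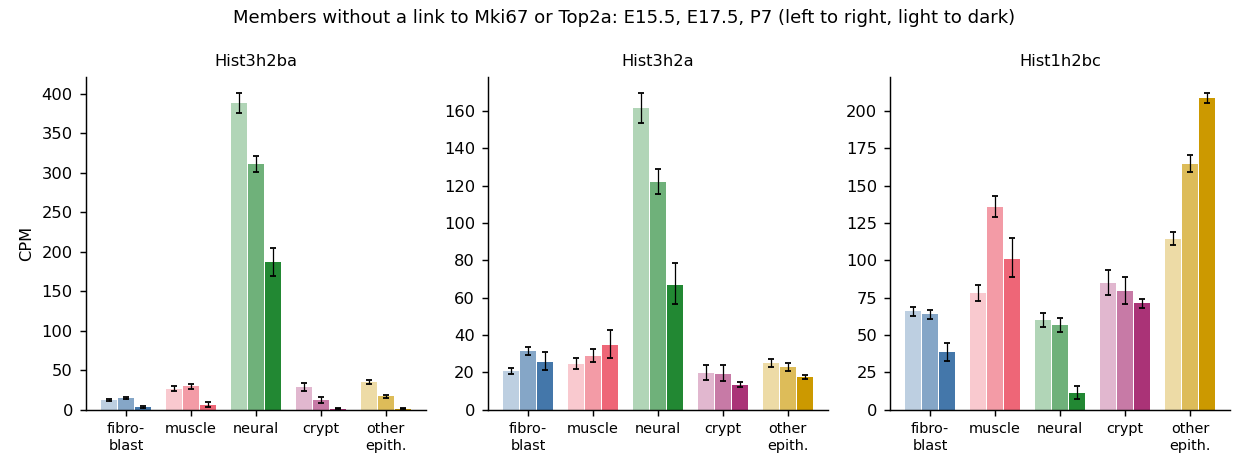
CPM of Hist3h2ba, Hist3h2a and Hist1h2bc in all cells of each class, with E15.5, E17.5 and P7 as bars from left to right and light to dark; error bars are 95% Poisson intervals. Hist3h2ba and Hist3h2a are highest in neural cells at every stage, and Hist1h2bc is highest in other epithelial cells at every stage.

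Hist1h2bc, an H2B gene, was the unlinked member of epithelium and muscle. In other epithelial cells Hist1h2bc rose from 115 to 165 to 209 CPM, in crypt cells it stood at 84.9, 79.5 and 71.2 CPM, in muscle at 78.1, 136 and 101 CPM, in fibroblasts at 65.8, 63.9 and 38.4 CPM, and in neural cells at 59.9, 56.6 and 10.9 CPM. The order of other epithelial above muscle above fibroblast held at E15.5, E17.5 and P7. The intervals of crypt and muscle cells overlapped at E15.5 (76.9 to 93.6 and 73.1 to 83.4 CPM), as did those of fibroblasts and neural cells (62.9 to 68.8 and 55.1 to 64.9 CPM). Hist1h2bc had a UMI in 75.1% of P7 other epithelial cells, or 40.0% after thinning to 3000 UMIs.

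Within the epithelium Hist1h2bc ran against the crypt markers. The crypt markers were Olfm4, Lgr5, Ascl2, Smoc2, Axin2, Rnf43, Slc12a2, Sox9, Cdca7 and Prom1. The comparison by marker number was not repeated without Cdca7, and whether the markers themselves move with the cell cycle was not tested. At P7, epithelial cells with 0, 3, 6 and 10 of the 10 crypt markers detected had 258, 161, 99.6 and 51.5 CPM of Hist1h2bc and 3.47, 45.8, 165 and 185 CPM of Hist1h1b. At E17.5, cells with 0, 3 and 6 markers had 220, 137 and 82.0 CPM of Hist1h2bc and 30.1, 274 and 591 CPM of Hist1h1b. At E15.5 Hist1h2bc was at 130, 114 and 120 CPM with 0, 3 and 6 markers, and lower, at 85.6, 61.3 and 66.9 CPM, with 5, 7 and 8, so the fall was uneven, while Hist1h1b went from 110 CPM with 0 to 413 with 3 and 734 with 6. The intermediate gene Hist1h1c lay between 36.4 and 44.1 CPM with 0 to 7 markers at P7, and at 30.9, 26.6 and 31.7 CPM with 8, 9 and 10. Marked cells made up 10.48% of P7 cells with 0 crypt markers and 85.1% of those with 10. The groups with 0 and 10 markers had median depths of 15949 and 21692 UMIs. What part the marked share had in the gradients of Hist1h2bc and Hist1h1b was not tested. In unmarked cells alone, Hist1h2bc stood at 86.7 CPM in crypt and 216 CPM in other epithelial cells at P7.

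**Figure D5:**
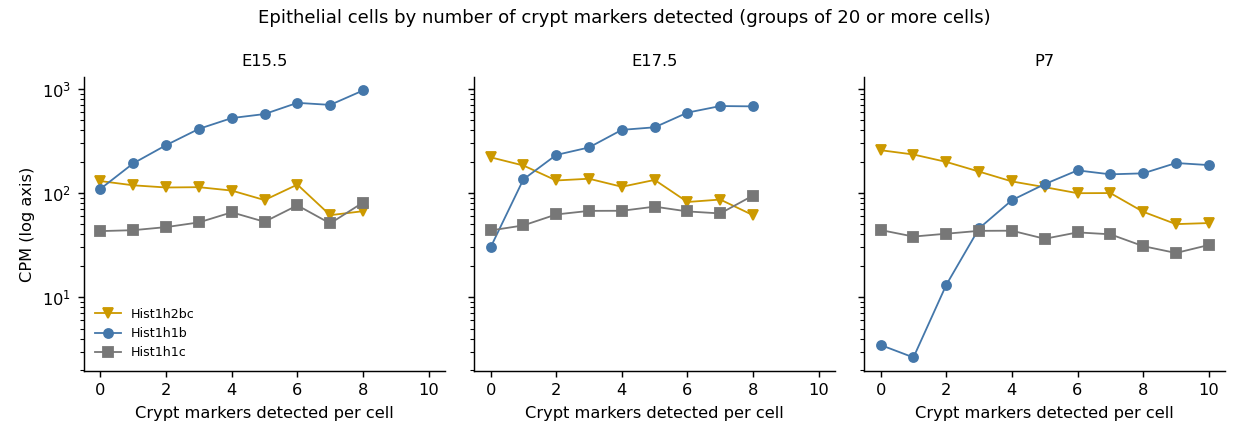
CPM (log axis) of Hist1h2bc, Hist1h1b and Hist1h1c in epithelial cells grouped by how many of 10 crypt markers were detected, for E15.5, E17.5 and P7 and groups of 20 or more cells. At P7 Hist1h2bc goes down from 258 CPM at 0 markers to 51.5 CPM at 10 markers while Hist1h1b goes up from 3.47 to 185 CPM. The marked share of cells also rises with the marker number at P7, and its part was not tested.

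The intermediate H1 genes Hist1h1e and Hist1h1c had ratios that varied between groups of cells. Hist1h1e had ratios of 7.82 (7.40 to 8.27) in E17.5 fibroblasts, 6.25 (5.59 to 7.00) in muscle, 4.59 (4.22 to 4.99) in other epithelial and 3.16 (2.98 to 3.34) in neural cells of the same library. Its intervals in neural cells and fibroblasts lie apart, but the neural value also carries the mix of neurons and glia, which differs with the marks. Hist1h1c had ratios of 4.37 (3.95 to 4.83) in E17.5 fibroblasts and 1.26 (1.16 to 1.37) in P7 other epithelial cells, where unmarked cells held 38.8 CPM and marked cells 48.9. These groups differ in stage and library as well as in class. Hist1h1e overlaps Hist1h2be on the same strand, so their UMIs cannot be fully told apart.

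Most genes that process and carry histones were less than 2-fold apart between marked and unmarked cells. Over the pooled classes at E17.5, 2 of 13 genes of histone mRNA processing were at least 2-fold higher in marked cells and 0 lower, with a median ratio of 1.60 where the median over all genes tested was 0.92. The highest were Slbp, the stem-loop binding protein, at 2.28 and Eri1, an exonuclease that trims histone mRNA ends, at 2.07, and the lowest were Lsm10 at 0.79 and Sympk at 1.13. Of the chaperones and assembly factors 6 of 13 were higher and 0 lower, led by Asf1b at 24.5 and Chaf1b at 5.50, with Daxx at 0.92 and Atrx at 1.02 the lowest. Of 11 histone variant genes outside the clusters 4 were higher and 0 lower: Cenpa, the centromeric H3, stood at 10.9 and H2afx at 9.06, and the lowest were H2afy2 at 0.79 and H3f3a at 0.95. The S list had 20 of 22 genes higher, from Mcm4 at 1.66 and E2f1 at 1.98 to Clspn at 13.0 and Rrm2 at 11.2, and the G2/M list 18 of 18, from Ccnb2 at 8.71 and Cdk1 at 14.0 to Aurkb at 68.6 and Nusap1 at 66.3. The share of all genes called higher, given above, was smallest at E15.5 and largest at P7 (4.88%, 5.83% and 9.1%), so the counts are not compared between stages. At E15.5 the counts of higher genes were 1 of 13 for processing, 6 of 13 for chaperones, 3 of 11 for variants, 18 of 22 for S and 18 of 18 for G2/M, and at P7 they were 4 of 12, 7 of 13, 5 of 11, 22 of 22 and 18 of 18.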

How the data were processed

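The authors deposited 1 matrix of whole UMI counts for each library; the submitters' processing notes name Cell Ranger 7.2.0 and mm10/GRCm38, with no parameters. All 3 barcode lists hold the same names, so barcodes that libraries share were not counted. Members, lists and classes were chosen with earlier results of these data known. Scrublet in scanpy 1.11.5 (expected rate 6%) marked 243, 453 and 389 doublets, which were removed. A cell joined a class with at least 3 of 10 markers detected and 2 more than any other class; cells with 4 or more markers of pericytes, interstitial cells of Cajal, mesothelium, endothelium or immune cells were set aside, and crypt cells were epithelial cells with 6 or more of 10 crypt markers. This left 7217, 9421 and 7700 cells, with 466, 674 and 45 set aside and 521, 1050 and 257 in no class.

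Levels are CPM of summed counts with exact Poisson intervals, ratios carry exact conditional binomial intervals and shares Clopper-Pearson intervals, all for counting error only. A group with 0 UMIs is set at a floor of 3 UMIs. The limits of 10 and 2 for the division of members, the gate limits, the thinning depth of 3000 UMIs and the grouping by phase lists were set after values had been seen, and the grouping replaced a first rule (S list UMIs over 2 times G2/M list UMIs) tried on the same cells. The division of neural cells by neuronal and glial genes was also added after seeing the data. Thinning left out 153, 981 and 449 cells. Named genes were the 12 members with the most UMIs, the 5 highest and 5 lowest ratios per library, and the 2 highest and 2 lowest of each pathway list (given here for E17.5); others were named after their values were seen. The calling of fold changes was tested on simulated data. Alternatives were no doublet removal, a lead of 4 markers, other scalings, thinned cells, other divisions by cycle genes, other UMI minimums and, added later, a crypt gate without Cdca7 and a reference without phase list UMIs. Python 3.11.15, numpy 2.4.6, scipy 1.17.1 and matplotlib 3.10.9 were used.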

Additional observations from a re-analysis of the deposited data

Results flagged for a closer look

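Hist1h2bc is given here because it was called in opposite directions by the marks in 2 classes of the E17.5 library: its CPM in cells with an Mki67 or Top2a UMI was 2.2 times that in cells without in neural cells (98.4 against 44.8 CPM), and 0.467 times in crypt cells (73.0 against 156 CPM). The crypt value rests on 18 unmarked cells, and the difference between the classes was not tested. Within the neural class Hist1h2bc was higher with the marks both in cells with neuronal markers (99.8 against 50.8 CPM) and in cells with glial markers (122 against 29.1 CPM).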

How the results depend on the processing

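All values here are log2 ratios unless given as percent. The fall of all members in fibroblasts from E15.5 to E17.5 was -0.83, and -0.80 with a lead of 4 markers, -0.80 without mitochondrial, haemoglobin and ribosomal protein genes, -0.74 scaled by the median ratio of genes and -0.77 in thinned cells. From E17.5 to P7 it was -1.27, and -1.20, -1.44, -1.43 and -1.16 under the same settings. In crypt cells from E17.5 to P7 it was -1.79, and -1.86 with doublets kept, -1.90 scaled and -1.83 thinned. Linked members in E17.5 fibroblasts stood at 5.65 with against without the marks, and at 5.57 with doublets kept, 5.77 with a lead of 4 markers, 6.02 with 2 or more UMIs of the marks and 5.15 when split by the G2/M list. Unlinked members there went from 0.09 to 0.52 under the G2/M split and to -0.040 against cells without a UMI of either phase list, a reference added after seeing the data. In P7 crypt cells the linked ratio was 3.97, and 3.43 thinned; the unlinked ratio was -0.27, -0.61 thinned, and turned to 0.55 under the G2/M split, as Hist1h2bc turned from -0.35 to 0.51. The cause was not tested. Marking phase at own depth moved both lists over S only from 5.12 to 6.08 in E17.5 fibroblasts and from 2.92 to 3.81 in P7 crypt cells. Thinning took Hist1h1b in E15.5 fibroblasts from 38.5% to 30.2% of cells and Hist1h2bc in P7 other epithelial cells from 75.1% to 40.0%. The other 24 alternatives for these results moved them less than their counting intervals or, for counts, less than 1.5 times. Of the alternatives for single members, 87 did so, 27 moved a value beyond its counting interval, and 1, that of Hist1h2bc above, turned it.

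No paired analysis was possible because each stage is 1 library, so leaving out a library leaves none of its stage. Strain, sex, number of animals and batch are not given in the sources used here, so stage cannot be told apart from library. The number of cells limits the P7 neural class, with 18 marked cells, and the unmarked crypt cells of the embryo, 6 and 18.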
